A study of Mus musculus with 45 samples.

Results

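The microglia genes were examined as a set of 34 genes of the 18135 genes in the deposited table. The members were listed by symbol, matched to the Ensembl identifiers of the table, and kept where their mean value was at least 10 normalized counts. All 34 were found and all 34 passed that filter in the cortex, hippocampus and striatum. They were described by region and by genotype, gene by gene and as a score.

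Microglia are the resident macrophages of the brain. They arise from yolk sac progenitors, depend on the receptor Csf1r and on the transcription factors Spi1 (PU.1) and Irf8, and survey the tissue with purinergic and chemokine receptors such as P2ry12 and Cx3cr1. They produce the complement component C1q, clear debris and synaptic material through receptors such as Trem2, whose signal passes through the adaptor Tyrobp, and degrade it in lysosomes that hold Cd68 and cathepsin S (Ctss).

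RNA from the prefrontal cortex (termed cortex), hippocampus and striatum was sequenced in adult wild-type (WT), heterozygous (Shank3-HT) and homozygous (Shank3-HM) mice, with 5 samples in each of 9 groups and 45 samples in all. Shank3 encodes a scaffold protein of excitatory synapses, and the mutants lack its exons 14 to 16 on 1 or both alleles. All mice were C57BL/6J males aged 13 weeks, and the homozygotes are called knock-out in the sample labels. Each group had 5 mice, so the 3 regions may come from the same animals, but the sources used here do not tie a replicate number to 1 mouse. No cells were sorted, so the RNA is that of all cells of the tissue. The values are DESeq2-normalized counts, and sequencing depth is unknown because they cannot be turned back into reads.

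The labelled genotypes and regions were checked first. Shank3 was lower in Shank3-HM than in WT in every region, with log2 fold changes of -0.98 ± 0.07 (cortex), -1.06 ± 0.04 (hippocampus) and -1.11 ± 0.07 (striatum; SE, n = 5 per group), and the groups did not overlap. For Shank3-HT they were -0.38 (cortex; limma, adjusted p = 0.288), -0.43 (hippocampus; adjusted p = 0.00022) and -0.50 (striatum; adjusted p = 0.0494), again without overlap. The call in the Shank3-HT striatum was lost under 12 of 17 alternatives, including without any 1 of Shank3-HT striatum replicates 1 to 5 or WT striatum replicates 1 to 4 (adjusted p = 0.0615 to 0.257). The summed level of 6 striatal marker genes was 105203 to 143459 normalized counts in the WT striatum and 2761 to 3423 in the WT cortex. Replicate 2 of the Shank3-HM cortex stood apart with 26914, against a group median of 3175. It also had the highest summed level of 6 hippocampus markers in its group, 13586 against a group median of 5006. Without it the Shank3 log2 fold change in the Shank3-HM cortex was -1.01 ± 0.06, and the counts of genes below 0 in the Shank3-HM cortex against WT are given with and without it.

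The defining microglial genes were present in every sample. Levels of different genes were compared per kilobase of the longest coding transcript. The order depends on this division, as the undivided WT striatum means were 3401 for Csf1r and 1847 for Ctss. How far the authors' own length normalization covers differences between genes was not tested. In the WT striatum Ctss, a lysosomal cysteine protease, was highest at 1363 ± 85.7 normalized counts per kilobase (SD, n = 5). The 3 chains of C1q followed, with C1qa at 988 ± 63.9, C1qb at 978 ± 26.8 and C1qc at 882 ± 30.7, and C1qa and C1qb did not differ beyond their spread. Csf1r came next with 723 ± 116 per kilobase, and then P2ry12 with 579 ± 65.1. The lowest were the transcription factor Spi1 with 39.1 ± 6.80 and Ptprc, which encodes the leukocyte phosphatase CD45, with 23.1 ± 3.38. The WT cortex and WT hippocampus also had Ctss and the C1q chains at the top of the per-kilobase order. Within a group, the coefficient of variation of a member had a median of 8.94% to 12.9%, which is of the size of the smaller differences between regions.

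Because PU.1 binds purine-rich sites and Irf8 joins it at composite sites, the promoters of the members were searched for the letters GAGGAAGT (a PU.1 core) and for an ETS-IRF composite, which is GGAA followed by 2 bases of any kind and GAAA, on both strands. RefSeq windows of GRCm38.p6, from 250 bases before to 50 after the annotated start, were found for 26 of 34 members, in 34 windows. The members without a window were C1qa, Csf1r, Gpr34, Itgb2, Selplg, Spi1, Tmem119 and Tyrobp. The PU.1 letters were in 5 of 34 member windows (14.7%), against 3.20% of 32851 windows of all genes, and the composite letters were in 1 (2.94%), against 2.72%. The PU.1 letters lay in C1qc, Cd53, Ctss, Inpp5d and Slco2b1, and the composite in Cd68. The windows of Irf8 and Ikzf1 held neither set of letters, which says nothing about the factors. The following stretches are shown because these genes were higher in the striatum against both other regions, 5′ to 3′ on the strand of the gene, with the matched letters in capitals.
Ctss, chr3:95526536-95526805, plus strand: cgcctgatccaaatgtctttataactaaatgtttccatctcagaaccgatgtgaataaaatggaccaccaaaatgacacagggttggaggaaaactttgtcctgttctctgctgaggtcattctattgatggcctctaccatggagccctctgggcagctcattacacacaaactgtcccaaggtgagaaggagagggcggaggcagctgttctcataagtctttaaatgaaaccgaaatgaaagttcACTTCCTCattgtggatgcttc
C1qc, chr4:136892895-136893164, minus strand: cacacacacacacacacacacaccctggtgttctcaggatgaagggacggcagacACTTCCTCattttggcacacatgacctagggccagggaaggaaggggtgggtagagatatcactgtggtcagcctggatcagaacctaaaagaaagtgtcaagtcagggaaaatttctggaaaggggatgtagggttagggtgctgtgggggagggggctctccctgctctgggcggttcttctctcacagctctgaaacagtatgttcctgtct
Cd53, chr3:106790130-106790399, minus strand: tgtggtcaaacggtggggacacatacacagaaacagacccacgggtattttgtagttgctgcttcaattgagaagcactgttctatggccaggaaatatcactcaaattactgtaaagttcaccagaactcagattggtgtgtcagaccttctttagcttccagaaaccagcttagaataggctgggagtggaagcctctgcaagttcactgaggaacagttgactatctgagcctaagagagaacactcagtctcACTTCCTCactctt
Cd68, chr11:69666131-69666154, minus strand: tgaggctTTTCATTTCCtcttcca
The match began 2 bases before the start in Ctss, 195 bases before it in C1qc, 6 bases after it in Cd53 and 23 bases after it in Cd68. In the Cd68 stretch the capitals are the composite read on the other strand, and in the others they are the PU.1 core read on the other strand.

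Whether microglia genes differ between brain regions was asked in WT mice. The striatum had the highest levels, with 19 of 34 members higher than in the cortex and none lower, where 30.0% of all genes tested were higher and 29.3% lower (limma on log2(normalized count + 1), Benjamini-Hochberg adjusted p under 0.05 over 16708 genes). Against the hippocampus 25 members were higher and 1, Ltc4s, was lower, where 27.8% of all genes were higher and 28.3% lower. The members' median log2 fold change was 0.26 against the cortex and 0.28 against the hippocampus, and that of all genes was 0.011 and -0.0019. The log2 fold change was above 0 in 31 members against the cortex, where 50.9% of all genes were above 0, and in 32 against the hippocampus, where 49.8% were. In whole tissue, more microglia, more RNA per microglial cell and RNA of these genes from other cells cannot be told apart.

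The 5 WT samples of the striatum lay wholly above those of the cortex in 11 members, where 22.9% of all genes did so, and wholly above those of the hippocampus in 10, where 19.1% did. These comparisons share the striatal samples, so their calls are not independent. Against the hippocampus only, 7 members were called higher (Tmem119, Csf1r, Siglech, Laptm5, Fcgr3, Inpp5d and Slco2b1), and Olfml3 was called against the cortex only. The 8 members called higher against neither were Aif1, Tyrobp, Fcrls, Ptprc, Spi1, Fcer1g, Ltc4s and Cd33. Fitted with only the 2 groups compared, 18 members were called between striatum and hippocampus in either direction instead of 26, and C1qa, Cd53, Fcgr3, Itgam, Itgb2, Ltc4s, Ly86 and Tmem119 lost their call there, as did Itgb2 and Trem2 against the cortex. The share of all genes called in that fit is not given here.

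The score, the mean log2 level of the 34 members minus the mean over all genes tested, put these differences on the level of a sample. In WT mice it was 0.29 ± 0.095 in the striatum (SD, n = 5), 0.0020 ± 0.077 in the cortex and -0.047 ± 0.030 in the hippocampus. The striatal samples ranged from 0.17 to 0.42 and did not overlap with those of the cortex (-0.12 to 0.087) or hippocampus (-0.088 to -0.014). The difference of 0.29 between striatum and cortex corresponds to 1.22-fold, and that of 0.34 between striatum and hippocampus to 1.26-fold. Without Cd68, Irf8 and Ikzf1, a choice made after seeing the data, the score still differed by 0.26 between striatum and hippocampus. The Shank3-HT and Shank3-HM striatum also stood high, with scores of 0.32 ± 0.059 and 0.25 ± 0.028.

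**Figure D1:**
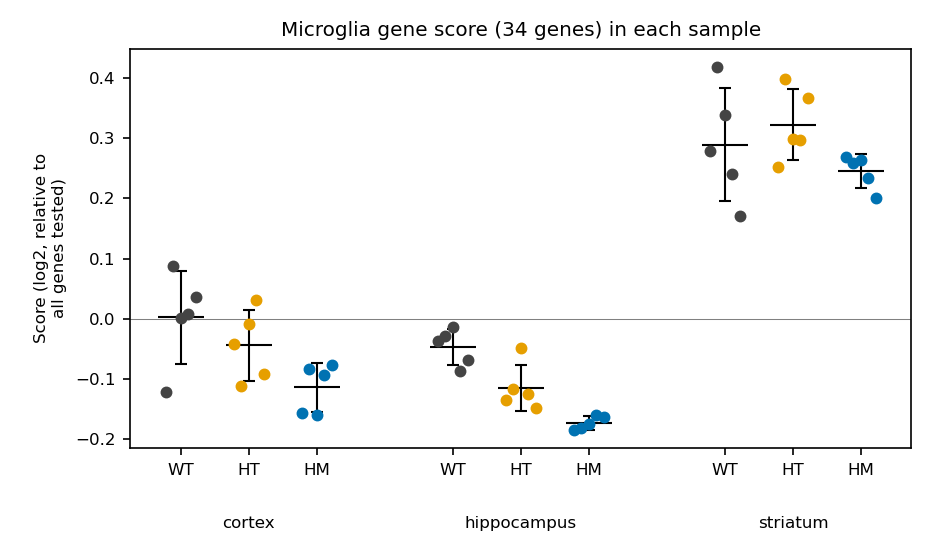
Score of the 34 microglia genes (vertical axis, log2 relative to all genes tested) in each of the 45 samples, by region and genotype; points are samples, horizontal bars group means and error bars SD (n = 5). All 15 striatal samples lie above all cortical and hippocampal samples, from 0.17 to 0.42, and the 5 Shank3-HM hippocampus samples (-0.19 to -0.16) lie below the 5 WT ones.

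The largest striatal differences belonged to Cd68, Ikzf1 and Irf8. Cd68, a heavily glycosylated lysosomal membrane protein of macrophages, had 380, 466, 307, 340 and 351 normalized counts in the 5 WT striatum samples. In the WT cortex it had 154, 170, 125, 157 and 119, and in the WT hippocampus 169, 201, 119, 144 and 149. Every striatal sample was above every sample of the other regions, and the cortex and hippocampus overlapped. The log2 fold change was 1.34 ± 0.16 (SE) against the cortex (2.53-fold, limma adjusted p = 1.1e-09) and 1.24 ± 0.16 against the hippocampus (2.36-fold, adjusted p = 8.5e-09).

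Ikzf1, the zinc finger factor Ikaros of blood and immune lineages, had 289, 264, 276, 223 and 175 normalized counts in the WT striatum, 110, 127, 112, 125 and 110 in the WT cortex and 86.0, 120, 106, 126 and 103 in the WT hippocampus. The lowest striatal sample, 175, was above the highest of the other regions. Its log2 fold changes were 1.04 ± 0.16 (adjusted p = 4.0e-07) and 1.16 ± 0.16 (adjusted p = 4.5e-08). Annotated antisense genes overlap Ikzf1, and the library kit marks strand.

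Irf8, the interferon regulatory factor that partners PU.1, had 205, 242, 212, 242 and 230 normalized counts in the WT striatum, 109, 131, 134, 104 and 130 in the WT cortex and 122, 97.7, 119, 143 and 122 in the WT hippocampus. The groups did not overlap, with log2 fold changes of 0.89 ± 0.11 (adjusted p = 2.0e-09) and 0.91 ± 0.11 (adjusted p = 1.4e-09). A read-through transcript on the same strand shares sequence with Irf8, so the assignment of its reads is uncertain. In the mutant striatum, where the log2 fold changes of the 3 genes against WT did not pass the threshold, Cd68 averaged 352 ± 56.6 in Shank3-HT and 371 ± 29.5 in Shank3-HM, Irf8 220 ± 22.7 and 227 ± 22.6, and Ikzf1 255 ± 49.4 and 240 ± 37.8. The highest cortical Cd68 value, 214, was in replicate 2 of the Shank3-HM cortex, the library with raised striatal markers, and the part of those markers in it was not tested.

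**Figure D2:**
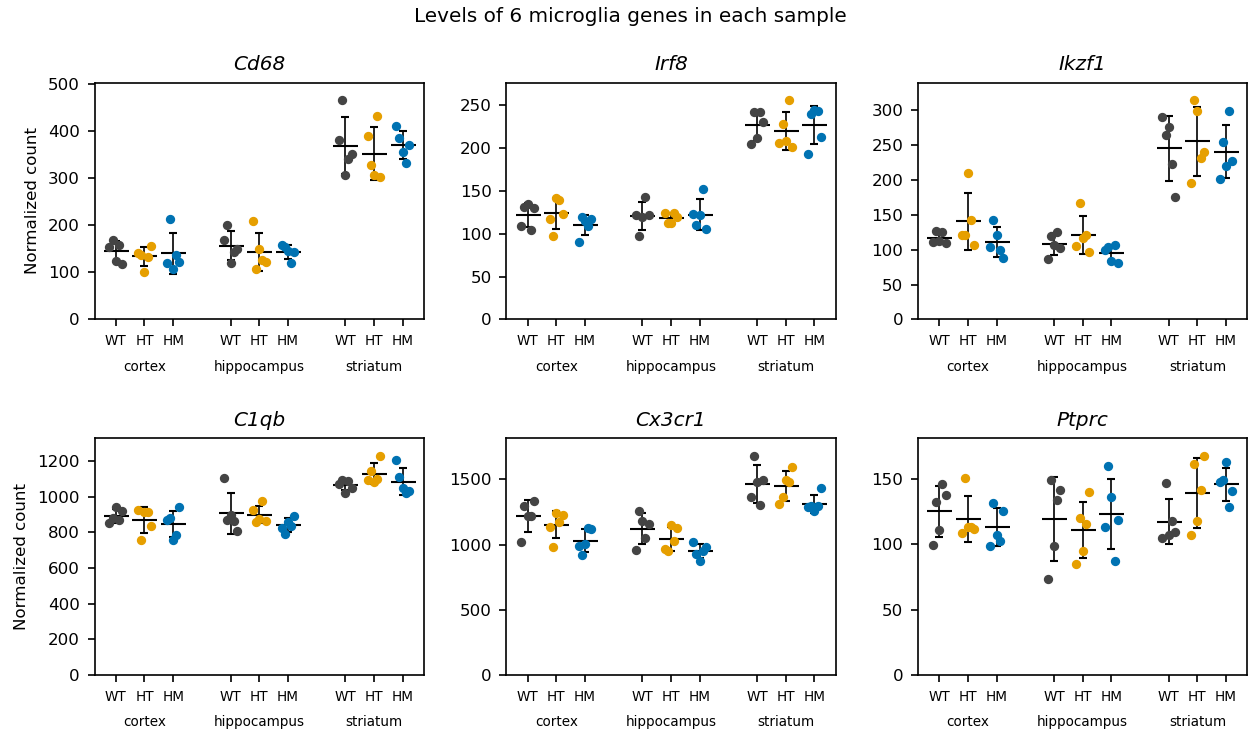
Normalized counts (vertical axes, each from 0) of 6 microglia genes in each of 45 samples by region and genotype; points are samples, horizontal bars group means and error bars SD (n = 5). Cd68, Irf8 and Ikzf1 have their WT striatum points wholly above the WT points of the other regions, by 1.86-fold to 2.53-fold, C1qb and Cx3cr1 are higher by 1.18-fold to 1.31-fold, and Ptprc overlaps between regions.

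The chemosensing receptors were all higher in the striatum, 4 of 4 against either region, with log2 fold changes of 0.27 to 0.41 against the cortex and 0.31 to 0.45 against the hippocampus. Cx3cr1, the receptor of the neuronal chemokine fractalkine, had 1366, 1683, 1482, 1304 and 1495 normalized counts in the WT striatum. It had 1017, 1293, 1221, 1223 and 1335 in the WT cortex and 957, 1260, 1183, 1050 and 1159 in the WT hippocampus, so the striatum cleared the hippocampus and overlapped with the cortex. Its log2 fold changes were 0.27 ± 0.08 (adjusted p = 0.0031) and 0.39 ± 0.08 (adjusted p = 4.8e-05). P2ry12, the ADP receptor that steers microglial processes towards injury, averaged 1358 ± 153 in the WT striatum, 1080 ± 175 in the cortex and 1096 ± 152 in the hippocampus (log2 fold changes 0.34 ± 0.09 and 0.31 ± 0.09). P2ry12 and P2ry13 lie within Med12l, and Gpr34 within Cask, each on the opposite strand.

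Of 6 genes of the homeostatic signature, which mark microglia at rest, only Olfml3 was higher in the striatum against the cortex (log2 fold change 0.23), and this call was lost without WT striatum replicate 2 (adjusted p = 0.077). Against the hippocampus Siglech (0.40), Slco2b1 (0.28) and Tmem119 were higher and Ltc4s was lower. Tmem119, a membrane protein used as a microglial marker, had 530, 594, 641, 697 and 626 normalized counts in the WT striatum, 548, 480, 615, 633 and 629 in the WT cortex and 552, 437, 561, 551 and 528 in the WT hippocampus. Cortex and striatum overlapped almost fully (log2 fold change 0.09 ± 0.08, adjusted p = 0.362). The difference from the hippocampus was 0.23 ± 0.08 (adjusted p = 0.016), and it was lost without WT hippocampus replicate 2 (adjusted p = 0.087) or WT striatum replicate 4 (adjusted p = 0.065). Siglech has close paralogs, and reads shared among them may be split.

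Among the lineage genes, Sall1, Irf8 and Ikzf1 were higher in the striatum against both regions, and Csf1r against the hippocampus. Sall1, a transcription factor that keeps microglial identity, had 794 to 890 normalized counts in the WT striatum, 623 to 691 in the cortex and 543 to 725 in the hippocampus, with no overlap against either. Csf1r, the receptor that keeps microglia alive, had 2870, 4177, 3739, 3217 and 3000 in the WT striatum, 2378, 3721, 2426, 2477 and 3268 in the WT cortex and 1786, 2848, 2492, 2317 and 2171 in the WT hippocampus. Its log2 fold change was 0.55 ± 0.13 against the hippocampus (adjusted p = 0.00053), with no overlap, and 0.26 ± 0.13 against the cortex (adjusted p = 0.0895). Spi1 averaged 79.5 ± 13.8 in the striatum, 64.8 ± 10.6 in the cortex and 88.3 ± 11.9 in the hippocampus, and no difference between regions passed the threshold. Its log2 fold change was 0.29 ± 0.21 against the cortex and -0.16 ± 0.21 against the hippocampus, and -0.45 ± 0.21 in the cortex against the hippocampus (adjusted p = 0.072).

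The 3 chains of C1q, which form the recognition molecule of the classical complement pathway, moved by nearly the same amount. C1qb had 1073, 1093, 1023, 1087 and 1048 normalized counts in the WT striatum, 850, 880, 942, 867 and 919 in the WT cortex and 1102, 868, 897, 862 and 804 in the WT hippocampus. The striatum was wholly above the cortex, and replicate 1 of the WT hippocampus reached the striatal level. This same sample was also the highest of its group for C1qa (1145) and C1qc (1088). The log2 fold changes against the cortex were 0.21 ± 0.07 for C1qa, 0.26 ± 0.07 for C1qb and 0.26 ± 0.06 for C1qc, and against the hippocampus 0.18 ± 0.07, 0.24 ± 0.07 and 0.22 ± 0.06. The C1qa call against the cortex was lost without WT striatum replicate 2 (adjusted p = 0.051). Against the hippocampus it was lost without any of WT hippocampus replicates 2 to 5 or WT striatum replicates 2 to 4, with adjusted p from 0.052 to 0.177 and a log2 fold change as low as 0.12.

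Among 6 genes of ITAM and ITIM signalling, which couple surface receptors to Syk kinase or to phosphatases, Trem2 was the only gene higher in the striatum against the cortex. Trem2, a lipid-sensing receptor of phagocytosis, had 389, 315, 407, 288 and 296 normalized counts in the WT striatum, 277, 307, 309, 253 and 260 in the WT cortex and 301, 215, 277, 269 and 236 in the WT hippocampus. Its log2 fold changes were 0.26 ± 0.11 (adjusted p = 0.032) and 0.38 ± 0.11 (adjusted p = 0.0021), and the groups overlapped. The call against the cortex was lost without WT cortex replicate 1 (adjusted p = 0.051), 4 (adjusted p = 0.086) or 5 (adjusted p = 0.074), or without WT striatum replicate 1 (adjusted p = 0.109) or 3 (adjusted p = 0.133).

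Tyrobp, the adaptor of Trem2, averaged 256 ± 24.3 in the WT striatum, 218 ± 16.5 in the cortex and 225 ± 28.6 in the hippocampus, and missed the threshold against both (log2 fold change 0.23 ± 0.10, adjusted p = 0.054, and 0.19 ± 0.10, adjusted p = 0.111). Inpp5d, which encodes the phosphatase SHIP1, and Fcgr3, an Fc receptor with close paralogs, were higher against the hippocampus only, by 0.46 ± 0.14 and 0.24 ± 0.09. The Fcgr3 call was lost without WT hippocampus replicate 2 (adjusted p = 0.083) or WT striatum replicate 3 (adjusted p = 0.102).

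Of 6 integrins and leukocyte surface proteins, 4 were higher against the cortex (Itgam, Itgb2, Cd53 and Selplg) and 5 against the hippocampus (these and Laptm5). Itgam, the alpha chain of complement receptor 3 (CD11b), had 694, 845, 766, 795 and 780 normalized counts in the WT striatum, 532, 745, 594, 564 and 687 in the WT cortex and 494, 782, 735, 657 and 602 in the WT hippocampus. Its log2 fold changes were 0.32 ± 0.10 (adjusted p = 0.0039) and 0.26 ± 0.10 (adjusted p = 0.019), and the call against the hippocampus was lost without WT hippocampus replicate 1 (log2 fold change 0.17, adjusted p = 0.131) or WT striatum replicate 2 (adjusted p = 0.055). A read-through transcript shares its strand with Itgam. Itgb2, its beta chain, was higher by 0.29 ± 0.11 and 0.30 ± 0.11, and its calls were lost without WT striatum replicate 2 (adjusted p = 0.082 against the cortex and 0.068 against the hippocampus) and, against the cortex, without WT cortex replicate 1 (adjusted p = 0.083). The tetraspanin Cd53 was higher by 0.32 ± 0.10 and 0.28 ± 0.10, the latter lost without WT striatum replicate 1 (adjusted p = 0.051). Ptprc averaged 117 ± 17.2, 125 ± 19.3 and 119 ± 31.9 in striatum, cortex and hippocampus, with log2 fold changes of -0.09 ± 0.16 and 0.01 ± 0.16.

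Of 4 phagocytosis and lysosome genes, Cd68, Ctss and Ly86 were higher in the striatum against both regions and Aif1 was not called. Ctss had 1912, 2009, 1834, 1754 and 1727 normalized counts in the WT striatum, 1424, 1527, 1504, 1521 and 1543 in the WT cortex and 1578, 1558, 1559, 1517 and 1550 in the WT hippocampus. The striatum was wholly above both, by 0.29 ± 0.06 (adjusted p = 2.0e-05) and 0.25 ± 0.06 (adjusted p = 0.00025). Ly86, which encodes the MD-1 partner of a Toll-like receptor homologue, was higher by 0.51 ± 0.10 against the cortex and 0.31 ± 0.10 against the hippocampus, the latter lost without WT hippocampus replicate 3 (adjusted p = 0.057). Aif1, which encodes the widely used microglial stain Iba1, averaged 79.4 ± 5.49 in the striatum, 94.4 ± 17.3 in the cortex and 74.4 ± 20.6 in the hippocampus (log2 fold changes -0.23 ± 0.16 and 0.13 ± 0.16).

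**Figure D3:**
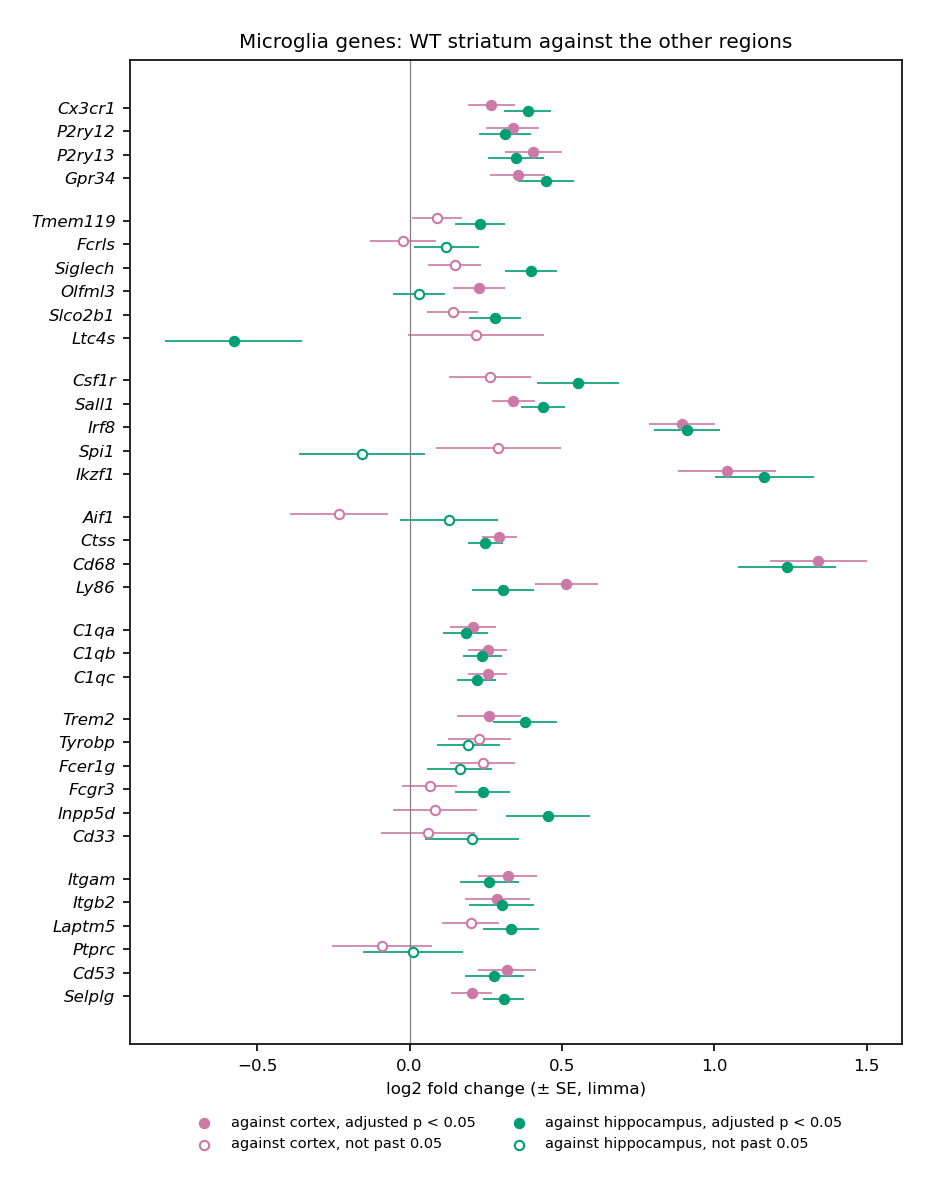
Log2 fold change (horizontal axis, with SE bars from limma) of each of the 34 microglia genes, grouped by role, for the WT striatum against the WT cortex and against the WT hippocampus (n = 5 per group); filled points have an adjusted p under 0.05. Cd68, Ikzf1 and Irf8 lie farthest right, at 0.89 to 1.34, 31 members lie above 0 against the cortex and 32 against the hippocampus, and Ltc4s lies at -0.58 against the hippocampus.

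Between the WT cortex and WT hippocampus, Inpp5d (0.37 ± 0.14, adjusted p = 0.024) and Siglech (0.25 ± 0.09, adjusted p = 0.016) were higher in the cortex and Ltc4s was lower, which is 3 of 34 members, where 23.3% of all genes were higher and 23.3% lower. No member separated the groups wholly, where 16.5% of all genes did so upwards and 15.5% downwards. The median log2 fold change of the members was 0.054. The score differed by 0.049 as a mean over the members and by 0.19 as a median over them. The mean-based value was 0.080 without WT cortex replicate 1, 0.028 without WT cortex replicate 2 and 0.023 when not taken relative to other genes. The Siglech call was lost without WT hippocampus replicate 4 (adjusted p = 0.070), and that of Inpp5d without WT cortex replicate 2 (adjusted p = 0.087) or WT hippocampus replicates 1 (adjusted p = 0.140) or 2 (adjusted p = 0.078). Both were lost in a fit of the 2 groups alone. Averaged over the 3 genotypes, 13 members were called instead of 3. That fit compares 15 samples with 15, and its share of all genes called is not given here. The count of 13 therefore cannot be set against other genes.

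Ltc4s, which makes leukotriene C4, was the only member called lower in the cortex or the striatum than in the hippocampus. It had 55.0, 53.4, 90.9, 151 and 89.3 normalized counts in the WT hippocampus, 40.7, 39.6, 43.6, 47.9 and 65.3 in the WT cortex and 46.1, 58.9, 58.3, 52.4 and 57.2 in the WT striatum. The log2 fold change was -0.79 ± 0.22 in the cortex against the hippocampus (adjusted p = 0.0031) and -0.58 ± 0.22 in the striatum against the hippocampus (adjusted p = 0.027). The highest value, 151, was in WT hippocampus replicate 4, which also had the highest level of Ttr, the transthyretin gene of the choroid plexus, at 113040 normalized counts. The next highest, 114, was in Shank3-HT striatum replicate 5, whose Ttr was 62259 where the lowest sample of its group had 7.15. All 12 choroid plexus markers were lower in the WT cortex than in the WT hippocampus, and their summed level was 9006 to 185813 in the WT hippocampus and 5377 to 6173 in the WT cortex. Without WT hippocampus replicate 4 the differences were -0.57 against the cortex, still called, and -0.36 against the striatum, no longer called (adjusted p = 0.164). The latter call was also lost without WT hippocampus replicates 3 (adjusted p = 0.055) or 5 (adjusted p = 0.053) or WT striatum replicate 1 (adjusted p = 0.064). The part of choroid plexus tissue in the Ltc4s level was not tested, and an antisense gene overlaps Ltc4s.

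**Figure D4:**
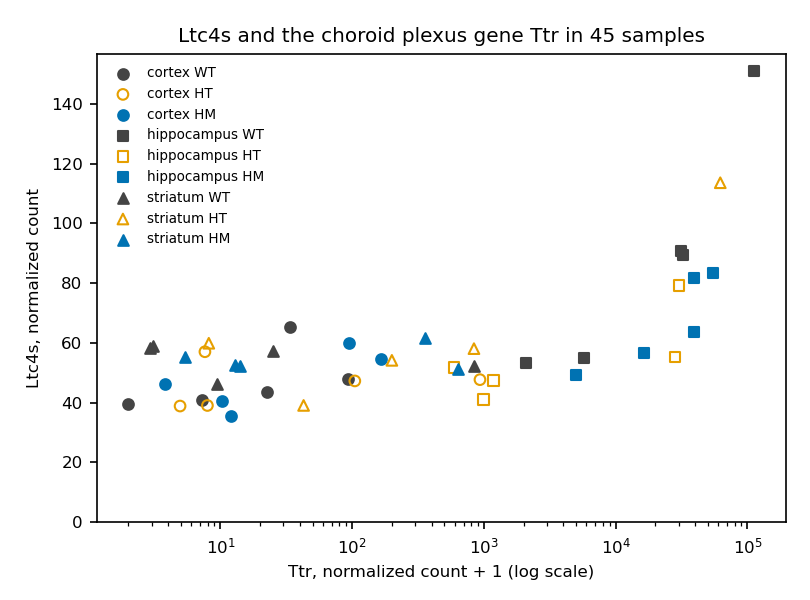
Ltc4s (vertical axis, normalized count from 0) against the choroid plexus gene Ttr (horizontal axis, normalized count + 1, log scale) in the 45 samples, with the shape giving the region and the colour the genotype. The 2 highest Ltc4s values, 151 and 114, are in the 2 samples with the highest Ttr.

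Markers of other macrophages did not rise with the members. Of 10 markers of border-associated macrophages, the macrophages of meninges and perivascular spaces, 7 were tested, and none was higher and 3 were lower in the WT striatum than in the cortex. These were Lyve1 (log2 fold change -1.43 ± 0.43), F13a1 (-0.84 ± 0.28) and the mannose receptor gene Mrc1 (-0.75 ± 0.25). Against the hippocampus 4 were lower and none higher. The summed level of the 10 markers was 666 to 834 normalized counts in the WT striatum, 769 to 985 in the cortex and 785 to 1478 in the hippocampus, and the platelet factor gene Pf4 averaged 4.82 ± 1.69 in the WT striatum.

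Of 20 blood cell markers 9 were in the table and 6 were tested. Cd4 was the only gene of these higher in the striatum, at 2800 ± 488 normalized counts against 19.8 ± 6.79 in the WT cortex, and the haemoglobin genes Hbb-bt and Hbb-bs were lower. The other 5 tested markers were below 0 in the striatum against either region. The summed blood marker level was 5824 to 8527 in the WT striatum, 4512 to 6642 in the cortex and 3189 to 7497 in the hippocampus. Without Cd4 the sum over the other 8 genes was 3180 to 5283 in the WT striatum, 4488 to 6629 in the cortex and 3182 to 7488 in the hippocampus. Of 13 oligodendrocyte lineage genes 11 were higher and none lower in the WT striatum than in the cortex, and 6 were higher and 3 lower than in the hippocampus. Of 12 astrocyte genes 1 was higher and 10 lower than in the cortex, and 2 were higher and 7 lower than in the hippocampus. Of 10 neuronal genes 1 was higher and 9 were lower than in the cortex (median log2 fold change -0.75), and 3 were higher and 5 lower than in the hippocampus. The part of these differences in tissue make-up in the members' levels was not tested.

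A further 42 genes of microglia and related myeloid cells, which are no members, gave 9 higher and 2 lower in the WT striatum than in the cortex, with a median log2 fold change of 0.18. Against the hippocampus 12 were higher and 4 lower, with a median of 0.20. Rgs10, a regulator of G protein signalling, was higher by 1.07 ± 0.09 and 1.18 ± 0.09. Parvg, an integrin-linked adaptor, was lower than in the hippocampus (log2 fold change -1.90 ± 0.16). Of these genes 32 were above 0 against the cortex, where 50.9% of all genes were, and 35 against the hippocampus, where 49.8% were. The share called higher in these genes was near or below that of all genes tested, and the share called lower was below it.

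Cx3cl1, which encodes fractalkine, the ligand of Cx3cr1, averaged 22617 ± 561 normalized counts in the WT striatum, 19812 ± 1185 in the cortex and 12488 ± 889 in the hippocampus, and all 3 differences passed the threshold. Of the ligands of Csf1r, Il34 averaged 1143 ± 73.0, 1308 ± 131 and 869 ± 169 in striatum, cortex and hippocampus, and was higher in the striatum than in the hippocampus (0.41 ± 0.11, adjusted p = 0.0012) but not than in the cortex (-0.19 ± 0.11, adjusted p = 0.129). Csf1 averaged 380 ± 22.9, 486 ± 23.1 and 779 ± 80.8, and was lowest in the striatum (log2 fold changes of -0.36 ± 0.10 and -1.03 ± 0.10). Of 29 ligands and partners tested, 8 were higher and 8 lower in the striatum against the cortex, and 8 and 7 against the hippocampus, beside 30.0% of all genes higher and 29.3% lower against the cortex and 27.8% and 28.3% against the hippocampus.

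Of 26 listed genes that rise in activated microglia, 21 were in the table and 18 were tested, and 4 were higher and 7 lower in the WT striatum than in the cortex. Lpl, which encodes lipoprotein lipase and is also made by neurons, was higher by 2.68 ± 0.16, and the antigen presentation genes Cd74 (-1.59 ± 0.44) and H2-Aa (-1.53 ± 0.46) were lower. Against the hippocampus 3 were higher and 11 lower. These counts stand beside the same shares of all genes, 30.0% and 29.3% against the cortex and 27.8% and 28.3% against the hippocampus.

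Whether the Shank3 mutation altered microglia genes was asked in each region. No member passed the adjusted threshold in any of the 9 genotype comparisons. The share of all genes called in either direction was itself 0.00% for Shank3-HT and 0.0121% for Shank3-HM in the cortex, 0.00603% for each mutant in the hippocampus, and 0.00607% for Shank3-HT and 0.182% for Shank3-HM in the striatum. Between Shank3-HM and Shank3-HT it was 0.00606% (cortex), 0.00603% (hippocampus) and 0.140% (striatum). The members lay mostly below 0 in the cortex and hippocampus, as described next, and the 2 comparisons of a region share its WT samples. All members are read in the same samples and may move together, so they are not independent observations. Counts of members above or below 0 therefore describe a direction and carry no test. The same holds for such counts between regions and in the other gene lists.

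In the Shank3-HM cortex the log2 fold change was below 0 in 30 of 34 members, where 50.9% of all genes were below 0, with a member median of -0.093 against -0.0025 for all genes. At an unadjusted p under 0.05, 6 members were lower and 0 higher, where 2.85% of all genes were lower. The smallest p-values were those of Cx3cr1 and Selplg. Cx3cr1 had 992, 919, 1002, 1126 and 1117 normalized counts in the Shank3-HM cortex and the WT values given above, and the groups overlapped (log2 fold change -0.24 ± 0.08, limma adjusted p = 0.878). Selplg, the ligand of selectins on leukocytes, had a log2 fold change of -0.19 ± 0.08 (adjusted p = 0.878). The score was -0.11 ± 0.041 against 0.0020 ± 0.077 in WT, and 2 of 5 Shank3-HM samples were below all WT samples. Without the library with raised striatal markers 32 of 34 members were below 0 with a median of -0.13, and 5 members were lower at an unadjusted p under 0.05, where 2.57% of all genes were lower. The log2 fold change was then -0.20 ± 0.08 for Cx3cr1 and -0.17 ± 0.08 for Selplg, and the score difference of -0.12 was also -0.12.

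In the cortex of Shank3-HT mice 28 of 34 members were below 0, where 50.4% of all genes were, with a median of -0.047. No member reached an unadjusted p of 0.05, where 2.68% of all genes did. Ly86 (-0.20 ± 0.10) and Olfml3 (-0.14 ± 0.08) had the smallest p-values (adjusted p = 0.9997 for both). The score of -0.044 ± 0.059 overlapped with WT. The score over the further 42 microglia genes differed from WT by 0.00013, with 22 of 42 genes below 0. The endothelial and mural genes were below 0 in 12 of 16, the neuronal genes in 7 of 10 and the astrocyte genes in 6 of 12, and the oligodendrocyte lineage genes were above 0 in 11 of 13. Their part in the members' levels was not tested.

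In the hippocampus of Shank3-HM mice 28 of 34 members were below 0, where 48.5% of all genes were, with a median of -0.089 against 0.0037 for all genes. At an unadjusted p under 0.05, 5 members were lower and 0 higher, where 1.86% of all genes were lower, and these were Cx3cr1, Trem2, P2ry13, Slco2b1 and Spi1. Cx3cr1 had 1023, 924, 876, 950 and 985 normalized counts, and 4 of the 5 WT samples were above all of them (log2 fold change -0.23 ± 0.08, adjusted p = 0.920). Trem2 had 204, 232, 199, 211 and 215, against 215 to 301 in WT (-0.28 ± 0.10, adjusted p = 0.920). Spi1 was the most variable of these, with 33.6, 85.6, 49.7, 62.5 and 89.8 in Shank3-HM and 71.0 to 104 in WT (-0.53 ± 0.24).

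The score separated the groups here, with -0.17 ± 0.011 in the Shank3-HM hippocampus and -0.047 ± 0.030 in WT. All 5 Shank3-HM samples, from -0.19 to -0.16, were below all 5 WT samples, from -0.088 to -0.014. The difference was -0.13, or 0.916-fold, and -0.14 to -0.12 when any single sample was left out. The score over the further 42 microglia genes differed by -0.0042 between these groups, and 24 of these genes were above 0. In Shank3-HM against WT the same score differed by -0.052 in the cortex, with 26 of 42 genes below 0 (27 of 42 without the library with raised striatal markers), and by -0.057 in the striatum, with 30 of 42 below 0. In every region the Shank3-HM and WT samples overlapped in this score over the further genes. It was not recomputed with single samples left out, so these differences are not compared between regions. Of other cell types in the Shank3-HM hippocampus, the endothelial and mural genes were below 0 in 13 of 16, the oligodendrocyte lineage genes in 11 of 13 and the neuronal genes in 8 of 10, and the astrocyte genes were above 0 in 9 of 12. In the Shank3-HM cortex the endothelial and mural genes were below 0 in 15 of 16, 7 of them at an unadjusted p under 0.05, the astrocyte genes were below 0 in 10 of 12 and the neuronal genes in 9 of 10, and the oligodendrocyte lineage genes were above 0 in 10 of 13. Without the cortex library with raised striatal markers the endothelial and mural count was also 15 of 16, now with 6 at an unadjusted p under 0.05, the astrocyte count was also 10 of 12, the oligodendrocyte lineage genes were above 0 in 8 of 13, and the neuronal genes were below 0 in 3 of 10. With all Shank3-HM cortex samples, border-associated macrophage markers were below 0 in 6 of 8 and blood cell markers in 5 of 6. Without that library the counts were 5 of 7 and 5 of 6. The activated microglia genes were above 0 in 11 of 19 either way. The part of these other cell types in the members' levels was not tested.

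In the hippocampus of Shank3-HT mice 25 members were below 0, where 48.0% of all genes were, with a median of -0.037. At an unadjusted p under 0.05, 1 member was lower, where 2.02% of all genes were lower, and this was Ltc4s (log2 fold change -0.60 ± 0.26, adjusted p = 0.926), and without WT hippocampus replicate 4 its log2 fold change was -0.38. All 12 choroid plexus markers were below 0 in this comparison (median log2 fold change -1.17), and their part in the Ltc4s level was not tested. P2ry13, a second ADP receptor, had -0.18 ± 0.10. The score was -0.12 ± 0.039, and 4 of 5 samples were below all WT samples. This score includes Ltc4s and was not recomputed without that gene. The score difference from WT was -0.068 over the members and 0.017 over the further 42 microglia genes, of which 22 were above 0, and the astrocyte genes were above 0 in 11 of 12.

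**Figure D5:**
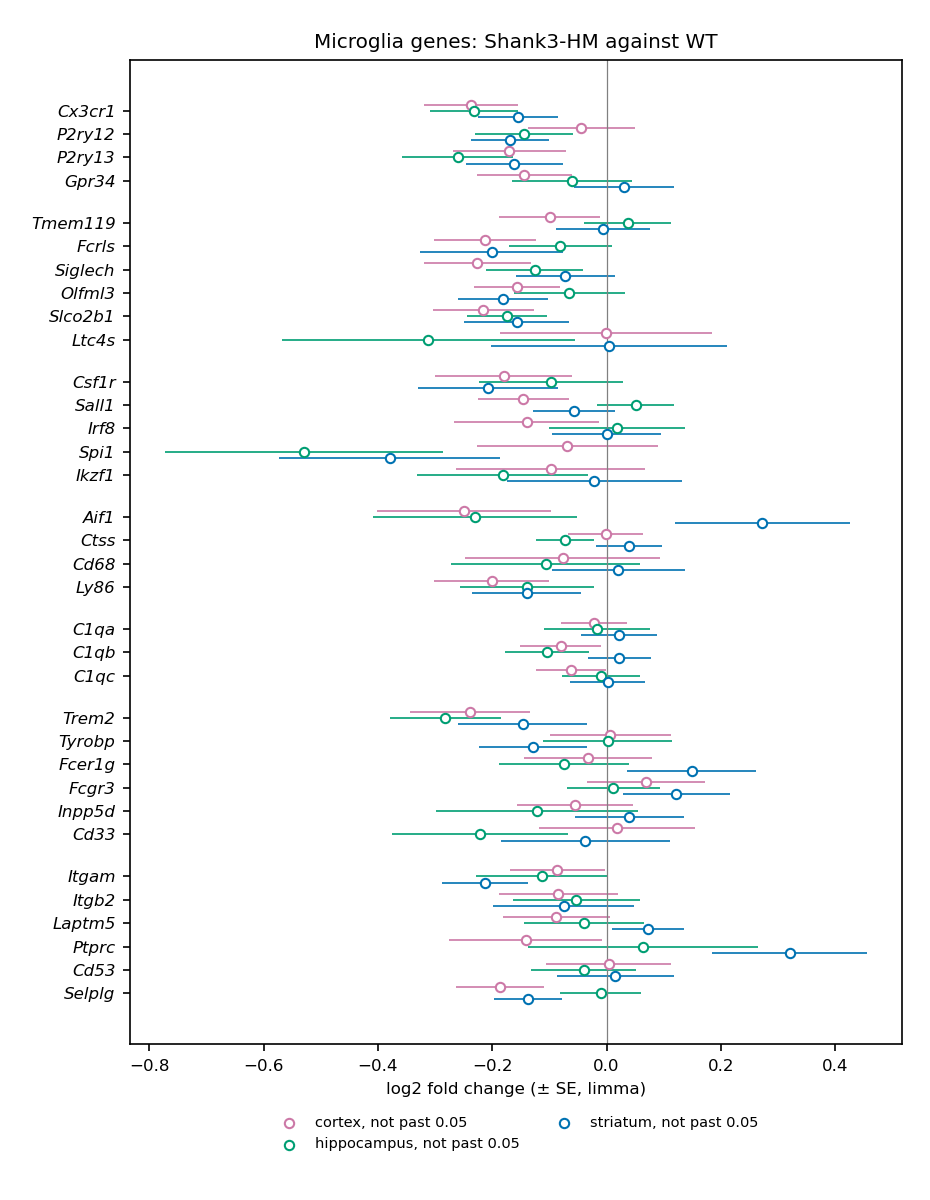
Log2 fold change (horizontal axis, with SE bars from limma) of each of the 34 microglia genes, grouped by role, for Shank3-HM against WT in the cortex, hippocampus and striatum (n = 5 per group); open points have an adjusted p of 0.05 or more, which holds for all of them. In the cortex 30 and in the hippocampus 28 of 34 points lie below 0, and in the striatum 19 do.

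In the striatum of Shank3-HM mice 19 of 34 members were below 0, where 49.7% of all genes were, with a median of -0.029. At an unadjusted p under 0.05, 5 members were lower and 1, Ptprc, was higher, where 3.42% of all genes were lower and 4.02% higher. Itgam had 602, 633, 705, 743 and 667 normalized counts in Shank3-HM and 694 to 845 in WT (log2 fold change -0.21 ± 0.07, adjusted p = 0.468). P2ry12 had 1211, 1095, 1247, 1225 and 1235 in Shank3-HM and 1174 to 1547 in WT (-0.17 ± 0.07, adjusted p = 0.581). Ptprc lay in the opposite direction to Itgam, at 0.32 ± 0.14 on the log2 scale (adjusted p = 0.620).

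In the striatum of Shank3-HT mice 14 members were below 0, where 52.0% of all genes were, with a median of 0.032. Cd53 (0.22 ± 0.10, adjusted p = 0.661) and Ptprc (0.23 ± 0.14, adjusted p = 0.749) had the smallest p-values. Other lists lay above 0 in the same comparison, with 28 of 42 further microglia genes, 17 of 18 activated microglia genes (4 at an unadjusted p under 0.05), 13 of 13 oligodendrocyte lineage genes (9), 12 of 12 astrocyte genes (5), 12 of 12 choroid plexus genes (2), 9 of 16 endothelial and mural genes and 7 of 10 neuronal genes. The share of all genes under that p is not given here for this comparison or for Shank3-HM against Shank3-HT. In Shank3-HM against WT the endothelial and mural genes were above 0 in 4 of 16, the activated microglia genes in 14 of 18, the oligodendrocyte lineage genes in 10 of 13, the astrocyte genes in 7 of 12 and the neuronal genes in 6 of 10. The part of other cell types in the members' levels was not tested. The scores of 0.32 ± 0.059 in Shank3-HT and 0.25 ± 0.028 in Shank3-HM overlapped with the WT score of 0.29 ± 0.095. Between the mutants, 25 of 34 members were below 0 in Shank3-HM against Shank3-HT, where 49.6% of all genes were. The further microglia genes were below 0 in 35 of 42, the activated microglia genes in 16 of 18, the oligodendrocyte lineage genes in 13 of 13, the astrocyte genes in 11 of 12 (4 of them at an unadjusted p under 0.05), the endothelial and mural genes in 14 of 16 and the choroid plexus genes in 12 of 12, and the neuronal genes in 5 of 10. The part of these other cell types in the members' levels was not tested. Csf1r had 3322, 3948, 3766, 3978 and 4289 normalized counts in Shank3-HT and 2746, 3086, 3951, 2701 and 2333 in Shank3-HM (log2 fold change of Shank3-HM against Shank3-HT -0.40 ± 0.12, adjusted p = 0.436). P2ry12 was the member whose groups did not overlap between Shank3-HM and Shank3-HT, with 1095 to 1247 and 1298 to 1419 (adjusted p = 0.703), where 0.522% of all genes were lower without overlap.

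Whether a genotype effect differed between regions was tested directly as an interaction. No member passed the threshold in any of the 6 interaction comparisons, where the share of all genes called was 0.00% in 4 of them, 0.0539% for the Shank3-HM effect in striatum against cortex and 0.0718% for striatum against hippocampus. Aif1 came nearest for the Shank3-HM effect, which was 0.52 ± 0.23 higher in the striatum than in the cortex (adjusted p = 0.856), and 0.54 ± 0.24 without the cortex library with raised striatal markers (adjusted p = 0.949). For striatum against hippocampus the Aif1 difference was 0.50 ± 0.23 (adjusted p = 0.911). For the Shank3-HT effect in striatum against hippocampus Ltc4s came nearest, with 0.76 ± 0.32 (adjusted p = 0.851). All 12 choroid plexus markers were above 0 in that comparison (median 2.26). The Ltc4s difference was 0.54 ± 0.30 without WT hippocampus replicate 4 (adjusted p = 0.904) and also 0.54 ± 0.30 without Shank3-HT striatum replicate 5 (adjusted p = 0.985), the libraries with the highest Ttr of their groups, and the part of choroid plexus tissue was not tested. At an unadjusted p under 0.05 these were the only members in those comparisons, where 5.42%, 5.37% and 5.60% of all genes lay under it, and in the other 3 comparisons no member did, where 3.35%, 3.46% and 4.45% of all genes did. Without the cortex library with raised striatal markers, 1 member was lower at that p for the Shank3-HM effect in cortex against hippocampus, where 2.36% of all genes were lower. For striatum against cortex 2 members were higher, and the share of all genes higher in that fit is not given here. These counts are not read as a change.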

How the data were processed

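RNA was sequenced from 45 samples (3 regions, 3 genotypes, 5 replicates each) with a kit for stranded mRNA libraries. The deposited signal values are DESeq2-normalized counts that the authors made with Salmon 1.1.0 on GRCm38, tximport and DESeq2 1.26.0 in R 3.6.2 (versions from the submitters' processing notes; the paper's methods name later versions of R and DESeq2). The authors normalized for gene length and library size, so whole reads could not be recovered, no count model was used, and depth is unknown; the normalized totals were 26118607 to 29568983 per sample. Columns marked KI were taken as the mice labelled knock-out, named Shank3-HM here.

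Values were analysed as log2(value + 1) in R 4.3.3 with linear models and trended moderation of limma 3.58.1. Regions in WT and interactions were fitted over all 9 groups (16708 genes with a mean of at least 10), and genotypes over the 3 genotypes of a region (16507, 16571 and 16482 genes in cortex, hippocampus and striatum). Fold changes understate the change of low genes. P-values were Benjamini-Hochberg adjusted over all genes tested, with a threshold of 0.05, and the code was tested on simulated data. The score carries no test. No pair of samples was identical. Members and gene lists were chosen with earlier results of these data known. Genes named were 14 core members, the 3 largest differences per WT comparison, the 2 smallest p-values per mutant comparison, and, from other lists, called genes with the largest differences; other named members were chosen after their values were seen. Alternatives were the pseudocount, the low-value filter, quantile normalization, the trend, the samples fitted, a replicate block and leaving out each sample. Promoter windows are RefSeq's.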

Additional observations from a re-analysis of the deposited data

Results flagged for a closer look

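In 324 sets of 5 samples (the 34 members, Shank3 and the score, each in the 9 groups), 19 held a highest or lowest sample whose gap to the nearest other, divided by the range, was above 0.71. Chance flags about 1 in 20 such sets. All values are normalized counts, and no difference in a genotype effect between regions passed its test.

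In the WT cortex, C1qa in replicate 5 was the highest at 938. In the Shank3-HT cortex, Csf1r in replicate 4 was the lowest at 2184, Ptprc in replicate 2 was the highest at 150 (150.3), and Spi1 in replicate 4 was the highest at 72.7. In the Shank3-HM cortex, Cd68 in replicate 2 was the highest at 214, in the library with raised striatal markers.

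In the WT hippocampus, Tmem119 in replicate 2 was the lowest at 437 and C1qc in replicate 1 the highest at 1088. In the Shank3-HT hippocampus, P2ry12 in replicate 3 was the highest at 1197 and Itgam in replicate 5 the highest at 836. In the Shank3-HM hippocampus, Cd33 in replicate 4 was the highest at 317.

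In the WT striatum, Fcgr3 in replicate 3 was the highest at 376 and Cd33 in replicate 2 the highest at 451. In the Shank3-HT striatum, Itgam in replicate 4 was the lowest at 679, Fcrls in replicate 1 the highest at 783 and Ltc4s in replicate 5 the highest at 114, in the sample with the highest Ttr of its group. In the Shank3-HM striatum, Cx3cr1 in replicate 5 was the highest at 1433, P2ry12 in replicate 2 the lowest at 1095, C1qc in replicate 5 the lowest at 892, and Shank3 in replicate 5 was the lowest at 4569.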

How the results depend on the processing

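No recomputed single-gene value changed sign. Of the scores, that of the Shank3-HT striatum against WT changed from 0.033 to -0.013 with the median over the members. Lists of other cell types were recomputed only without replicate 2 of the Shank3-HM cortex, where the neuronal genes went from 9 to 3 of 10 below 0. Of 363 recomputed counts of members called, 358 stayed within 1.5 times the reported count. The others all concern WT cortex against WT hippocampus, with 3 members called as reported, 5 after quantile normalization, 7 with a replicate block and 13 averaged over the 3 genotypes, and 2 to 5 when a sample was left out, where 5 came without WT cortex replicate 1 or WT hippocampus replicate 3; the cause was not tested. Leaving out a sample gave 16 to 23 members for striatum against cortex, 23 to 26 for striatum against hippocampus, and 0 for the genotype and interaction comparisons. Of 135 recomputed scores 132 moved by less than the replicate SD. With the median over the members in place of the mean, the score differed by 0.19 between WT cortex and hippocampus and by 0.43 between WT striatum and hippocampus. With the mean, and without Cd68, Irf8 and Ikzf1, the difference between WT striatum and hippocampus was 0.26 in place of 0.34. The cause of these shifts was not tested. Of 1167 recomputed single-gene values 1109 stayed on their side of the threshold and 58 lost the call. The Shank3 call in the Shank3-HT striatum was lost with a pseudocount of 0.1, with no filter, with no trend and without 9 of the samples, with log2 fold changes of -0.53 to -0.47 when a sample was left out. In none of 18 pairs of groups did all same-numbered samples have deviations correlated above 0.1, the level required. The number was therefore not used as a pairing. All 5 correlations were nonetheless above 0 between WT cortex and hippocampus (0.034 to 0.195) and between WT hippocampus and striatum (0.039 to 0.204). They were also above 0 between Shank3-HT striatum and cortex (0.054 to 0.152) or hippocampus (0.051 to 0.198). The same held between Shank3-HM hippocampus and striatum (0.038 to 0.151). In every other pair the lowest correlation was below 0, including all pairs of genotypes within a region. In WT, 4 of 5 cortex and hippocampus samples, 3 of 5 cortex and striatum samples and 4 of 5 hippocampus and striatum samples correlated best with their own number, as a hint from the data. It was 4 of 5 for Shank3-HT striatum with cortex and with hippocampus, and 3 of 5 for Shank3-HM hippocampus and striatum. Other mutant pairs of regions, and all pairs of genotypes within a region, had 1 or 2 of 5. Region and interaction fits without the block treat all samples as independent, so mice shared between regions would be an ignored pairing. With the replicate block 23 members were called between WT striatum and cortex and 26 between striatum and hippocampus, and 0 in the genotype comparisons. For none of the recomputed counts of members called is the share of all genes given here, so they cannot be set against other genes. Depth is unknown, so no counting error could be given.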

Other observations

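Among the lists of other cell types and regions, Lamp5 was the gene past the threshold in a mutant comparison. It marks cortical neurons and interneurons, and had 4434, 4004, 4487, 4143 and 3843 normalized counts in the Shank3-HM striatum and 2496 to 3153 in the WT striatum (log2 fold change 0.53 ± 0.07, limma adjusted p = 0.0018), with no overlap. Of the 6 cortex markers in its list 3 were above 0 and 3 below in this comparison (median log2 fold change 0.049), and Lamp5 is named because it alone passed. In the Shank3-HM cortex its log2 fold change was -0.25 ± 0.15 (adjusted p = 0.882), and -0.09 ± 0.11 (adjusted p = 0.975) without the library with raised striatal markers.

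The complement genes C4b and C3, which act downstream of C1q, had the hippocampus as their highest region by mean level. C4b averaged 1332 ± 228 normalized counts in the WT hippocampus, 826 ± 88.4 in the striatum and 268 ± 40.0 in the cortex. C3 averaged 44.8 ± 18.5, 32.0 ± 10.9 and 2.26 ± 1.28. Both are also made by astrocytes and other cells, so whole tissue does not show which cells made the RNA.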
